A study of Bos taurus with 6 samples.

Results

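bta-miR-126-3p and bta-miR-126-5p, both arms of the hairpin miR-126, were followed through the small RNA of extracellular vesicles (EVs) released by bovine oviductal organoids. Both were taken by name from the deposited table of EV miRNAs, in which they are 2 of 1028 rows, and both had reads in all 6 libraries. The study cultured organoids from oviduct epithelium in a synthetic matrix and asked what heat stress changes in the cells and in the EVs that they release. The tracts came from cattle in diestrus and were collected at an abattoir. EVs were isolated from the conditioned medium by serial centrifugation, filtration, ultracentrifugation and a column step, and their small RNA was sequenced.

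The heat-stressed group was 3 libraries of EVs from organoids that were given their final day of culture at 42 °C. The thermoneutral group was 3 libraries of EVs from organoids that stayed at 37 °C throughout. The libraries of each temperature carry the letters A, B and C. Each replicate was a pool of 2 animals, and the same oviducts were represented at both temperatures, but the labels tie no library to an animal. The spread between libraries, on which every test rests, is therefore a spread between pools. The organoids were grown from epithelium, and nothing in the labels ties the vesicles to a cell type within them.

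A miRNA hairpin is cut by Dicer into a duplex, and usually the strand from its 5′ or its 3′ side is kept in Argonaute while the other is degraded. miR-126 is a hairpin in an intron of EGFL7, a gene of the vessel wall, and in human and mouse it is among the most abundant miRNAs of endothelial cells, and is also found in blood-forming cells and platelets. In those species the 3p arm represses SPRED1 and PIK3R2, inhibitors of signalling downstream of VEGF, and in mouse the 5p arm represses DLK1. In the RefSeq annotation of the bovine assembly ARS-UCD2.0, MIR126 is an entry of 73 bases on chromosome 11 that lies within EGFL7. The nearest other miRNA entries on either side are MIR12056 and MIR12014.

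The levels are in CPM, read counts relative to library size that the authors also adjusted with TMM factors, a correction for differences in library composition. The values are whole multiples of what 1 read is worth, so reads could be recovered. The reads recovered are those annotated as miRNAs, a small part of the reads that the study retained after quality control. They numbered 72580 to 213877 at 42 °C and 31640 to 150214 at 37 °C. Each read was worth 5.53 to 28.7 CPM at 42 °C and 5.87 to 17.0 CPM at 37 °C. miR-1246 took 26.7 to 71.8% of the reads at 42 °C and up to 50.0% at 37 °C. Of the 1028 miRNAs, 341 had a read in at least 1 library, and 251 had a mean of at least 10 CPM at 1 or both temperatures and were tested.

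The 3p arm was the abundant one. bta-miR-126-3p had 1232, 7857 and 2814 CPM in 42 °C libraries A, B and C, against 4354, 2796 and 4049 CPM in 37 °C libraries A, B and C. The highest and the lowest of the 6 libraries were both at 42 °C, and the range at 37 °C lay wholly inside the range at 42 °C. These values rest on 155, 1420 and 98 reads at 42 °C and on 256, 476 and 548 reads at 37 °C. At 42 °C the exact 95% Poisson intervals were 1046 to 1442 CPM in A, 7453 to 8276 CPM in B and 2285 to 3430 CPM in C. At 37 °C they were 3837 to 4921 CPM in A, 2551 to 3059 CPM in B and 3717 to 4402 CPM in C. Such intervals cover counting error only, and 13 of the 15 pairs of libraries had intervals that did not overlap. Within each temperature the 3p arm thus differed between libraries by more than the sampling of reads, and only A and C at 37 °C had intervals that overlapped.

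The mean of bta-miR-126-3p was 3968 ± 3460 CPM at 42 °C and 3733 ± 825 CPM at 37 °C (SD, n = 3 each), a ratio of means of 1.06. Library B at 42 °C had 3.88 times the mean of the other libraries at 42 °C, and without it the ratio of means was 0.542. The medians were 2814 CPM at 42 °C and 4049 CPM at 37 °C. The level of the highest library was 6.38 times that of the lowest at 42 °C, and 1.56 times at 37 °C. In a bulk sample of vesicles, fewer vesicles that carry a miRNA and fewer copies per vesicle cannot be told apart.

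On the log2(CPM + 10) scale of the limma fit, the 3p arm had a log2 fold change of -0.28 at 42 °C over 37 °C (SE 0.57, 95% interval -1.53 to 0.96, adjusted p = 0.84). Its sign was opposite to that of the ratio of means, since the log scale gives library B at 42 °C less weight. The interval runs from 0.347-fold to 1.94-fold, so in this fit the data bound the change without fixing its direction. The bound depends on the setting. With scaling per quality-controlled read the limma interval of the log2 fold change was -2.78 to 1.65. edgeR and DESeq2 on the recovered reads each gave 0.02 (adjusted p = 0.99 with edgeR and 0.99 with DESeq2). Without library A at 42 °C the log2 fold change was 0.36, and without library B at 42 °C it was -0.97, with adjusted p of 0.72 and 0.34 in limma.

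The 5p arm was present at a far lower level. bta-miR-126-5p had 23.8, 144 and 115 CPM in 42 °C libraries A, B and C, against 187, 88.1 and 59.1 CPM in 37 °C libraries A, B and C. Library A was lowest at 42 °C and highest at 37 °C, and the groups overlapped. The reads behind these values were 3, 26 and 4 at 42 °C and 11, 15 and 8 at 37 °C, which is 33 and 34 reads in all. The exact Poisson intervals ran from 4.92 to 69.7 CPM in the lowest library and from 93.4 to 335 CPM in the highest. In 2 of the 15 pairs of libraries the intervals did not overlap, and both pairs held library A at 42 °C, set against library B at 42 °C and against library A at 37 °C. For the other pairs the counting error of the 5p arm was wide beside the differences.

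bta-miR-126-5p averaged 94.2 ± 62.6 CPM at 42 °C and 111 ± 67.1 CPM at 37 °C (SD, n = 3 each). The limma log2 fold change was -0.35 (SE 0.79, 95% interval -2.05 to 1.36, adjusted p = 0.86), an interval from 0.241-fold to 2.57-fold that understates the range for so low a level because of the 10 CPM added before the logarithm. Without library A at 42 °C the value was 0.33, and without library A at 37 °C it was 0.07 (adjusted p of 0.84 and 0.99 in limma).

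Neither arm was called by limma, edgeR or DESeq2. Calls required at least a 2-fold change beside an adjusted p below 0.05. Among the 251 miRNAs, limma called 2.39% (6 miRNAs, 4 higher and 2 lower at 42 °C), edgeR 4.38% and DESeq2 6.77%. The libraries of both temperatures did not overlap for 24.3% of the 251 miRNAs, and they overlapped for both arms of miR-126.

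**Figure D1:**
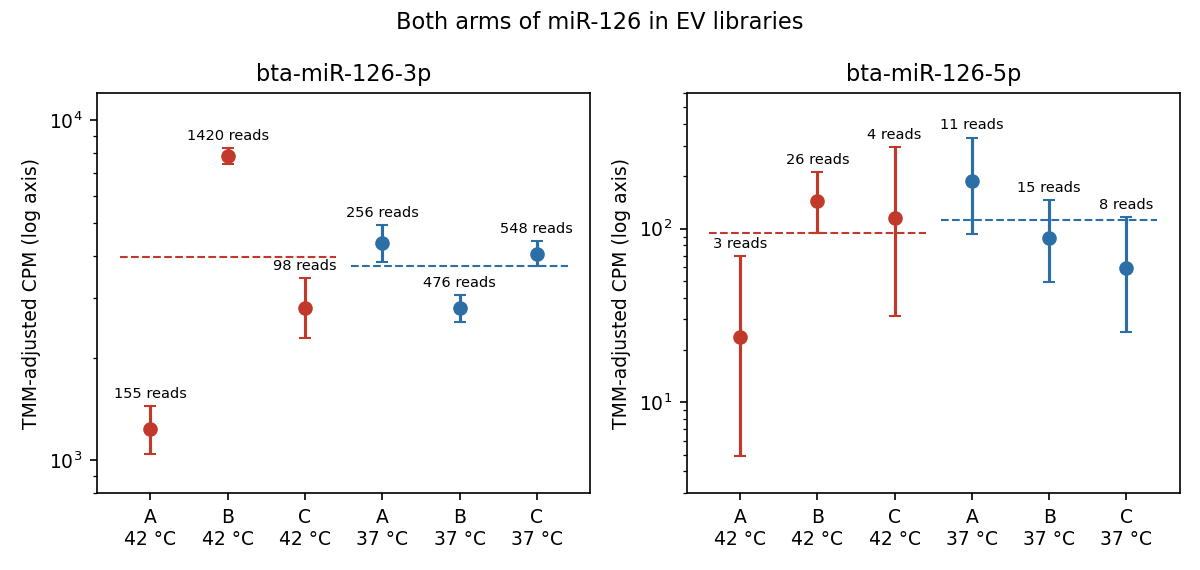
Level of bta-miR-126-3p (left) and bta-miR-126-5p (right) in each EV library, in TMM-adjusted CPM on log axes with separate ranges; points are libraries with their recovered reads, bars are exact 95% Poisson intervals and dashed lines are group means. The 3p arm spans 1232 to 7857 CPM at 42 °C and 2796 to 4354 CPM at 37 °C, while the 5p arm lies between 23.8 and 187 CPM.

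**Figure D2:**
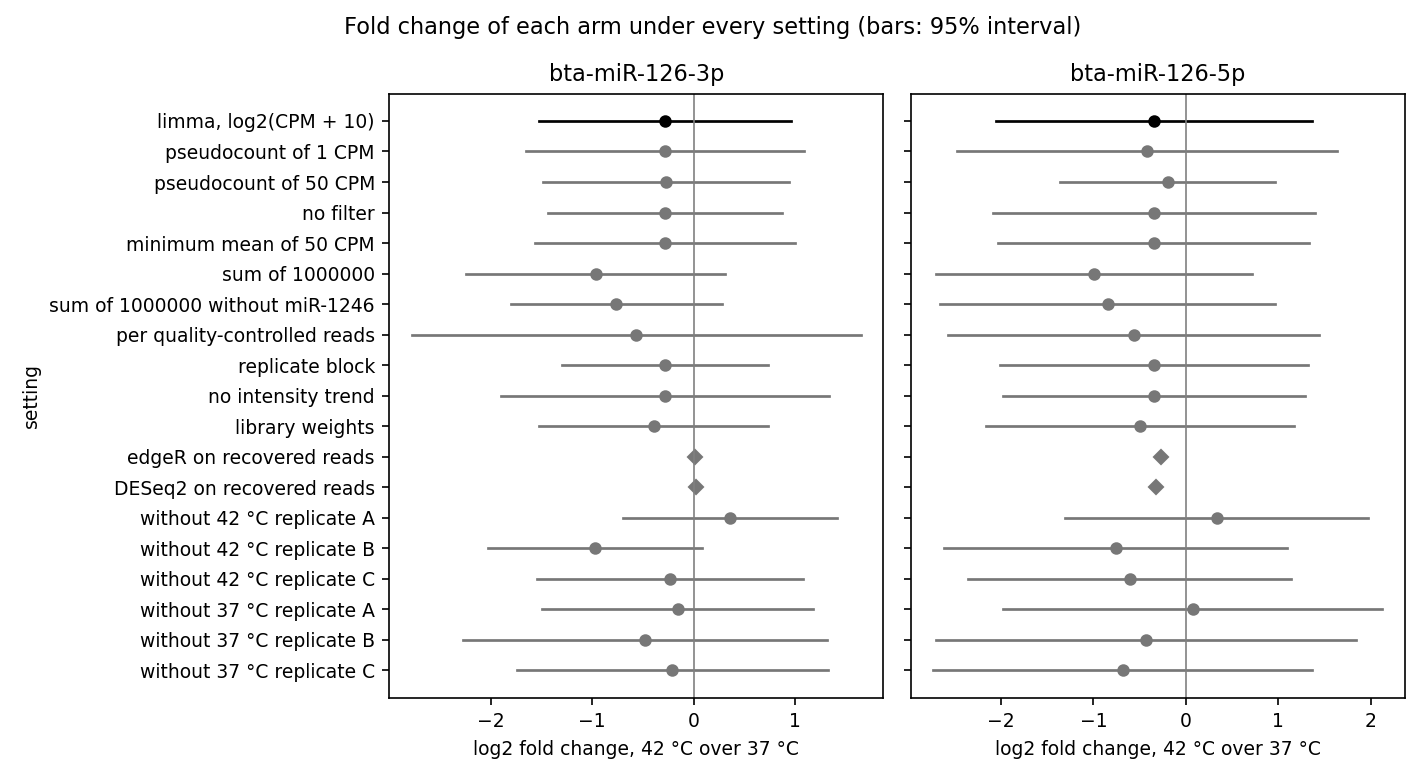
log2 fold change of each arm at 42 °C over 37 °C under the limma fit (black) and 18 alternatives (grey), with 95% intervals for the limma fits and diamonds without intervals for edgeR and DESeq2. All intervals drawn include 0, and the point estimates lie between -0.97 and 0.36 for the 3p arm and between -0.99 and 0.33 for the 5p arm.

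By rank of the mean, bta-miR-126-3p stood at place 30 at 42 °C and at place 22 at 37 °C. At 42 °C its neighbours were miR-320a (4406 CPM) and miR-423-5p (4187 CPM) above and miR-27b (3463 CPM) and miR-25 (2717 CPM) below. At 37 °C they were miR-192 (4475 CPM) and miR-99a-5p (3868 CPM) above and miR-10a (3485 CPM) and miR-7 (3371 CPM) below. At both temperatures the means of the nearest neighbours lay within 1 SD of the mean of the 3p arm, so its place among them is not set by these libraries. Within single libraries its place was 48, 18 and 34 in 42 °C libraries A, B and C, and 21, 26 and 23 in 37 °C libraries A, B and C.

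bta-miR-126-5p stood at place 126 at 42 °C and at place 120 at 37 °C. Its neighbours at 42 °C were miR-193a-5p (107 CPM) and miR-31 (105 CPM) above and miR-17-5p (92.2 CPM) and miR-543 (89.8 CPM) below. At 37 °C they were miR-15b (117 CPM) and miR-17-5p (112 CPM) above and miR-30b-5p (102 CPM) and miR-382 (99.6 CPM) below. These means too were closer to the 5p arm than its own SD.

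Which library came out highest depended on the scale. As a share of all miRNA reads, which uses no TMM factor, bta-miR-126-3p made up 0.149, 0.664 and 0.135% in 42 °C libraries A, B and C, against 0.809, 0.317 and 0.391% in 37 °C libraries A, B and C. By share, library A at 37 °C was highest and library B at 42 °C next, and the groups overlapped. The mean share was 0.316 ± 0.301% at 42 °C and 0.506 ± 0.265% at 37 °C, a difference of -0.19 percentage points (n = 3 each, exact two-sided permutation test, p = 0.5). With miR-1246 left out of the total, the shares of the 3p arm were 0.250, 0.906 and 0.478% at 42 °C, against 1.08, 0.634 and 0.777% at 37 °C. The means on this base were 0.545 ± 0.333% at 42 °C and 0.830 ± 0.227% at 37 °C (n = 3 each, exact p = 0.3). The 5p arm averaged 0.00685 ± 0.00478% of miRNA reads at 42 °C and 0.0168 ± 0.0157% at 37 °C (n = 3 each, exact p = 0.4). With 3 libraries against 3 this test cannot give a p below 0.1.

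The arms were set against each other within each library, where library scaling cancels. The 3p arm had 51.7, 54.6 and 24.5 reads per read of the 5p arm in 42 °C libraries A, B and C, against 23.3, 31.7 and 68.5 in 37 °C libraries A, B and C. The 3p arm led in 6 of 6 libraries, and the groups overlapped. The exact 95% interval of this ratio was widest in library A at 42 °C (17.4 to 253), which had 3 reads of the 5p arm, and it ran from 37.1 to 83.9 in library B at 42 °C. In library A at 37 °C it ran from 12.8 to 47.2, and in library C at 37 °C from 34.5 to 159. The intervals overlapped in all 15 pairs of libraries, which does not show that arm use was the same, and the libraries were not compared pair by pair with a test.

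Over all 6 libraries there were 2953 reads of bta-miR-126-3p and 67 of bta-miR-126-5p, 44.1 to 1 (exact 95% interval 34.6 to 57.0). The 3p arm held 98.1% of the hairpin's reads at 42 °C (exact Clopper-Pearson interval 97.3 to 98.7%) and 97.4% at 37 °C (96.4 to 98.2%). These intervals of pooled reads cover counting error only, not the spread between libraries, whose single ratios ran from 23.3 to 68.5. Library B at 42 °C alone gave 1420 of the 3p and 26 of the 5p reads. The log2 ratio of the arms, with 0.5 reads added to each, averaged 5.22 ± 0.68 at 42 °C and 5.14 ± 0.79 at 37 °C (SD, n = 3 each), a difference of 0.08 (exact two-sided permutation test, p = 1.0). Over the 6 libraries the mean was 5.18 ± 0.66 (SD, n = 6), above 0 in 6 of 6 (exact two-sided sign-flip test, p = 0.031, the smallest it can give). As 3 means per letter the same value has p = 0.25, the smallest that 3 values can give by this exact test. The 3p arm is the more abundant one under every alternative run, while the difference between temperatures changed sign on leaving out any of 4 libraries and lay between -0.25 and 0.51.

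The lead of the 3p arm was set beside that of other hairpins. The table names both arms of 82 hairpins, and 27 of them had at least 20 reads over both arms. Of these, 13 leaned to the 3p arm and 14 to the 5p arm, and 8 had more 3p than 5p reads in all 6 libraries. miR-126 had the mean log2 ratio of the 3p to the 5p arm (5.18) that came next after miR-151 (9.27) and miR-27a (7.08), followed by miR-23b (4.66), and the lowest was that of miR-21 (-13.1). The dominant arm of miR-126 held 97.8% of its reads, and the median over the 27 hairpins was 98.5%. By the size of the mean log2 ratio regardless of direction miR-126 was at place 9 of 27 (5.18, against a median of 3.76), and by the share of the dominant arm at place 16.

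The arm ratio of miR-126 ran from 23.3 to 68.5 reads of the 3p per read of the 5p arm, on 3 to 26 reads of the 5p arm per library. Its SD over the 6 libraries was 0.66 on the log2 scale, the smallest among the 27 hairpins, whose median was 1.52. Its difference between temperatures was also the nearest to 0. The part of counting error in these SDs was not tested. The next smallest SDs, 0.74 to 0.88, were those of miR-9, miR-21, miR-142 and miR-23b, which had 0 to 3 reads of the minor arm, so that there the ratio follows little but the reads of the dominant arm. Among the 6 hairpins with at least 20 reads of each arm, a limit chosen after the values were seen, the SDs of the other hairpins ran from 1.22 to 2.36. These hairpins were not matched in depth, and miR-7857 had only 30 and 38 reads of its arms. The SDs of miR-22 and miR-199a also hold a difference between temperatures. The arm ratios at both temperatures did not overlap for 5 of the 27 hairpins (18.5%), and miR-126 was not among them.

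**Figure D3:**
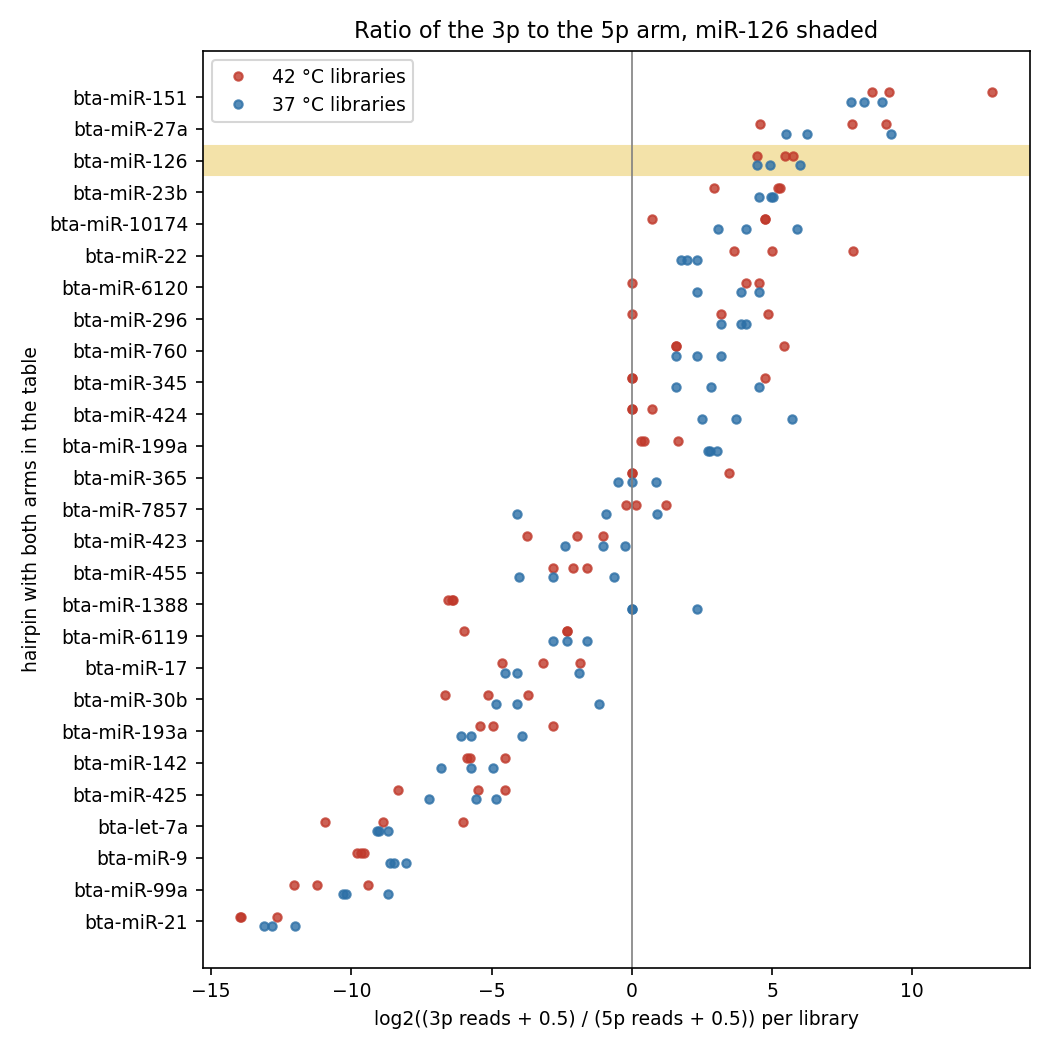
log2 ratio of 3p to 5p reads, with 0.5 reads added to each, per library for the 27 hairpins with at least 20 reads over both arms, ordered by mean; red points are libraries at 42 °C and blue points libraries at 37 °C. miR-126 (shaded) lies below miR-151 and miR-27a with all 6 libraries between 4.45 and 6.01, and where an arm has no read the position of a point is set by the depth of the library.

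The miRNAs whose profile over the 6 libraries was most like that of bta-miR-126-3p were sought among the 83 others with at least 10 reads in every library. The measure was the root mean square difference of log2(CPM + 10) after each miRNA's own mean was subtracted, and its median over the 83 was 0.98. The nearest was miR-140, a miRNA known from cartilage, at 0.27. It was followed by miR-148a at 0.46, miR-146b at 0.49, miR-122 at 0.54 and miR-98, a member of the let-7 family, at 0.56. The profiles share the same libraries and the same scaling factors, and their likeness is a description without a test. The 5p arm could not enter as a candidate because it had fewer than 10 reads in some libraries.

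miR-140 had 151, 946 and 488 CPM in 42 °C libraries A, B and C, against 425, 411 and 621 CPM in 37 °C libraries A, B and C. miR-148a, at a much higher level, had 42485, 188592 and 44025 CPM at 42 °C, against 54626, 62082 and 74045 CPM at 37 °C. miR-122, the main miRNA of hepatocytes, had 8926, 96614 and 13038 CPM at 42 °C, against 16293, 15632 and 25393 CPM at 37 °C. As for the 3p arm of miR-126, library B at 42 °C was highest for all 5 neighbours, and library A at 42 °C was lowest for all but miR-98, whose lowest library was B at 37 °C. In library B at 42 °C the 3p arm lay 1.24 above its own mean on the log2 scale, and in library A at 42 °C it lay at -1.42. Since the measure sets miRNAs against each other within a library, the scaling of libraries enters it only through the 10 CPM that were added.

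**Figure D4:**
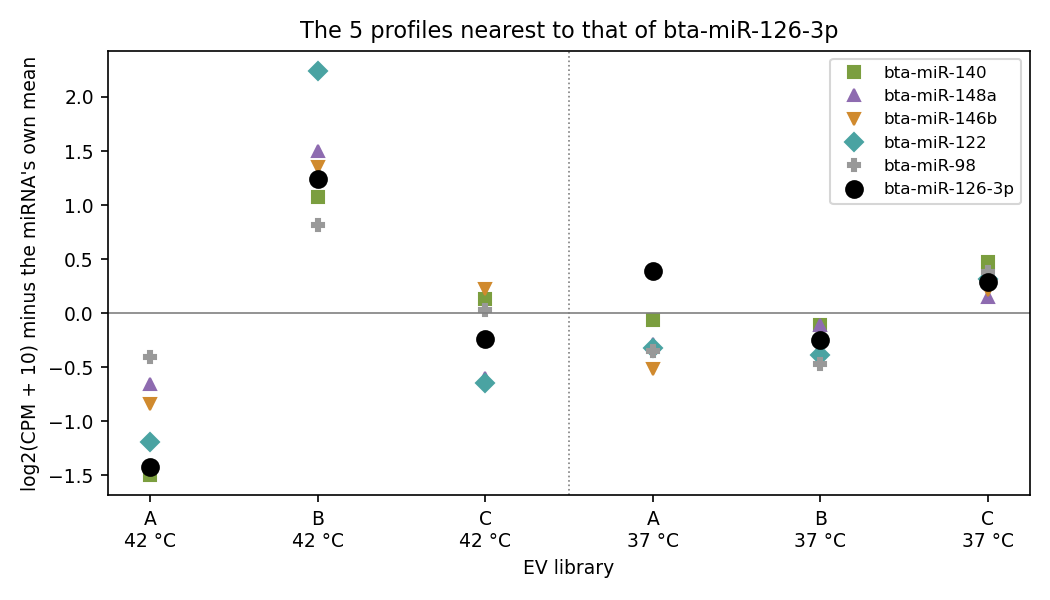
Profiles of bta-miR-126-3p (black) and the 5 miRNAs nearest to it over the 6 EV libraries, as log2(CPM + 10) minus each miRNA's own mean. Library B at 42 °C is highest for all 6 miRNAs, with miR-126-3p at 1.24, and its values at 37 °C run from -0.25 to 0.39.

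The label of an endothelial miRNA could not be checked on independent markers, because the endothelial list held only the arms of miR-126. miRNAs typical of other cells were all detected. Those of epithelium (the miR-200 family and miR-205) summed to 12670 to 26238 CPM at 42 °C and to 12347 to 19774 CPM at 37 °C, with reads for 6 of 6. Those of stroma and smooth muscle summed to 4078 to 13153 CPM at 42 °C and to 2649 to 7347 CPM at 37 °C, with reads for 5 of 5. Together the arms of miR-126 summed to 1256 to 8000 CPM at 42 °C and to 2884 to 4541 CPM at 37 °C, below the epithelial list in each library. They lay above the stromal list in library B at 42 °C and in libraries B and C at 37 °C, and below it in the other libraries.

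Library B at 42 °C, where the 3p arm of miR-126 was highest, was also the highest for 2 of the 3 erythroid miRNAs and for 2 of the 6 of leukocytes and platelets. The latter were miR-142-5p and miR-142-3p, and miR-142-3p had only 2 reads over all libraries. Library B at 42 °C was highest for 0 of the 6 epithelial and 0 of the 5 stromal miRNAs. For miR-122, the only miRNA of the liver list, it was the highest library (96614 CPM). This library had the most miRNA reads (213877). The share of all miRNAs that were highest in it was not counted, so these counts show no excess for any list. Some miRNAs of none of these marker lists were highest in it too, such as let-7i (38912 CPM) and miR-128 (6761 CPM). The erythroid list (miR-451, miR-486 and miR-144, 3 of 3 with reads) summed to 15412 to 174301 CPM at 42 °C and to 13912 to 47558 CPM at 37 °C, with 174301 CPM in library B at 42 °C. miR-451, its defining member, had 13672, 159915 and 17777 CPM in 42 °C libraries A, B and C, against 12415, 22993 and 42941 CPM in 37 °C libraries A, B and C. The list of leukocytes and platelets (6 of 6 with reads) summed to 5395 to 13354 CPM at 42 °C and to 1854 to 1986 CPM at 37 °C, without overlap. Of its members, 3 lay higher in all 42 °C libraries than in any 37 °C library, and 3 overlapped. Among all 251 miRNAs tested, 24.3% did not overlap, in either direction. Of the 6 epithelial miRNAs, 2 also lay higher in all 42 °C libraries. miR-150, its lymphocyte member, supplied most of the gap, with 3497, 1981 and 9678 CPM at 42 °C, against 51.0, 11.7 and 59.1 CPM at 37 °C. miR-142-5p, another leukocyte miRNA, had 215, 813 and 316 CPM at 42 °C, against 255, 153 and 414 CPM at 37 °C. It overlapped between temperatures, was highest in library B at 42 °C as the 3p arm of miR-126 was, and came next after miR-98 in likeness of profile (0.56). The other erythroid and leukocyte markers with enough reads to be compared were less alike. These were miR-486 at 0.77, miR-451 at 0.87, miR-146a at 0.96 and miR-155 at 1.03, beside a median of 0.98. The liver miRNA miR-122, at 0.54, was nearer than any of the blood markers. miR-155 had 1343, 1040 and 1292 CPM at 42 °C, against 1020, 1392 and 680 CPM at 37 °C, and overlapped too. No marker of these lists was at 0 in all libraries, and the part of other cell types in the level of miR-126 was not tested.

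Other miRNAs studied in vessel growth in human and mouse were taken as a list of 16, all of which were tested. By limma 1 was called higher at 42 °C, 0 were called lower and 15 were not called, beside 2.39% called among all 251. The median log2 fold change of the list was -0.18, against -0.01 for all 251, and 11 of its members had a negative value and 5 a positive one. The values of the miR-126 arms, -0.28 and -0.35, lay within the range of the list, -1.26 to 4.17. That range is wide, its upper end is set by miR-92a alone and the next highest value was 1.31. Lying within it does not show a likeness to the list. The libraries did not overlap between temperatures for 6 of the 16, against 24.3% of all 251, and they overlapped for both arms of miR-126.

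The member called was miR-92a, of the miR-17-92 cluster, which restrains vessel growth in mouse. It averaged 52778 ± 40314 CPM at 42 °C and 2477 ± 660 CPM at 37 °C, a limma log2 fold change of 4.17 (SE 0.53, adjusted p = 3.5e-04). The call was lost without library B at 37 °C (log2 fold change 4.03, adjusted p = 0.053 in limma) and with scaling per quality-controlled read (3.89, adjusted p = 0.055), while the size of the change stayed close to that of all 6 libraries. miR-17-5p of the same cluster had a log2 fold change of -0.25, and its adjusted p was 0.88 in limma. miR-221 and miR-222, neighbours on the genome that repress KIT, had limma log2 fold changes of opposite sign. They were -1.25 for miR-221 (adjusted p = 0.097 in limma) and 0.69 for miR-222 (adjusted p = 0.46 in limma), and the difference between them was not tested. Of this list, the paper's own negative binomial model called miR-92a and miR-10b higher and miR-221 lower at 42 °C.

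The other members included miR-10a and miR-10b, from introns of HOX clusters, with log2 fold changes of 1.00 and 1.31 (adjusted p of 0.25 and 0.11 in limma). All their 42 °C libraries lay above all 37 °C libraries. miR-27b and miR-23b-3p, from a cluster shared with miR-24, had 0.31 and -0.35, and miR-24-3p had -0.29 (adjusted p of 0.72, 0.81 and 0.74 in limma). miR-210, a target of the hypoxia response, had -0.11 (adjusted p = 0.96 in limma). Least well measured were miR-130a and miR-132, with 7 reads each over all libraries, and miR-296-3p with 37. By mean level 5 of the 16 exceeded bta-miR-126-3p at 42 °C, and 3 did so at 37 °C.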

How the data were processed

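Small RNA of EVs was sequenced in 6 libraries from TruSeq Small RNA kits. The authors trimmed the reads, annotated them with miRBase release 22 in CLC Genomics Workbench 21 and applied TMM. The deposited values are a signal, called TMM-adjusted CPM in the paper. The submitters' processing notes also name bcl2fastq, Bowtie2 2.2.2, DESeq2 and ARS-UCD1.2, without a role. In each library the smallest value above 0 was taken as 1 read, and 100% of the other values came out as whole reads (within 0.01). These are miRNA reads, not whole libraries; the study's quality-controlled reads served as another base in an alternative. A miRNA with no read is compatible with up to 3 reads, or 16.6 to 86.2 CPM.

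Groups were compared by limma 3.58.1 in R 4.3.3, with an intensity trend and Benjamini-Hochberg adjustment, on log2(CPM + 10) of miRNAs whose mean reached 10 CPM in a group. The paper's negative binomial model needs counts, so the recovered reads were also tested with edgeR 4.0.16, which called 11 miRNAs, and with DESeq2 1.42.0. Arm ratios and shares were compared with exact permutation tests (scipy 1.17.1). Other pseudocounts, filters and scalings, a replicate block, library weights and the omission of each library were tried. The scripts were tested on simulated data.

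The members and lists were chosen with earlier results of these data known. Named are both arms, the angiogenesis list, the 5 nearest profiles, the 2 neighbours on each side in rank, and the extreme arm ratios; other miRNAs are named after their values were seen. Chromosome and host gene come from RefSeq (ARS-UCD2.0) by symbol; coordinates are left out because the builds differ.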

Additional observations from a re-analysis of the deposited data

How the results depend on the processing

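Neither arm of miR-126 was called under any of 18 alternatives (adjusted p from 0.34 to 0.99 for the 3p arm and from 0.64 to 0.99 for the 5p arm). The log2 fold change of the 3p arm changed sign with edgeR (0.018), with DESeq2 (0.018) and without library A at 42 °C, and with 1 library left out it lay between -0.97 and 0.36. That of the 5p arm changed sign without library A at 42 °C or library A at 37 °C, and lay between -0.76 and 0.33. Scaling each library to a sum of 1000000 gave a median of all miRNAs of -0.57, against -0.01 as deposited, and the arms lay at -0.40 (3p) and -0.43 (5p) relative to that median. Per quality-controlled read the median was -0.25 and both arms lay at -0.31 relative to it. The cause of these shifts was not tested.

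The number of miRNAs called, 6 (4 higher and 2 lower at 42 °C), was 10 with a minimum mean of 50 CPM, 20 (4 and 16) at a sum of 1000000, 15 (4 and 11) at that sum without miR-1246, 2 per quality-controlled read, 10 without an intensity trend, 11 with library weights, 11 with edgeR and 17 with DESeq2. With 1 library left out it ran from 1 (without library B at 37 °C) to 9, and was 3 without library C at 37 °C. Of the angiogenesis list, 2 were called at either sum (miR-92a and, lower at 42 °C, miR-221), 3 with DESeq2 (also miR-10b, higher), and 0 per quality-controlled read or without library B at 37 °C.

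The difference of the arm ratio lay between -0.25 and 0.51 with 1 library left out. The mean ratio stayed between 5.02 and 5.33 (exact p = 0.0625, the smallest for 5 values), and as means per letter it was 5.18 (exact p = 0.25). Shares of miRNA reads kept their sign without any 1 library.

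Libraries of the same letter did not deviate together (correlations of -0.06, 0.03 and -0.06 over 251 miRNAs). With 3 libraries per temperature this cannot show whether a letter marks the same animals. The main fit used no pairs, and a block by letter was run as an alternative. With a replicate block 15 miRNAs were called, and the 3p and 5p arms had the same log2 fold changes (-0.28 and -0.35) with adjusted p of 0.82 and 0.88 in limma. The depth limits the 5p arm most, with 3 to 26 reads per library.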

Other observations

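Hairpins other than miR-126 had arm ratios that did not overlap between the temperatures. For miR-22 the log2 ratio of the 3p to the 5p arm was 4.99, 3.66 and 7.89 in 42 °C libraries A, B and C, against 2.31, 1.97 and 1.76 in 37 °C libraries A, B and C, from 2029 reads of the 3p and 196 of the 5p arm. For miR-199a it was 1.65, 0.32 and 0.44 at 42 °C, against 2.70, 2.80 and 3.03 at 37 °C, from 522 reads of the 3p and 163 of the 5p arm. The other such hairpins, miR-424, miR-1388 and miR-9, had 3 or fewer reads of an arm. All 5 were chosen after their values were seen and were not tested. miR-126, read in the same libraries, had a difference between temperatures of 0.08 on this scale.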
